A study of Mus musculus with 18 samples.

Results

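The 41 genes described here encode regulators of chromatin and DNA methylation. They comprise 5 genes of Polycomb repressive complex 2, 6 of Polycomb repressive complex 1, 4 Trithorax-type H3K4 methyltransferases, 5 histone demethylases, 5 genes of DNA methylation and its maintenance, 3 TET oxidases, 6 histone deacetylases, 2 acetyltransferases and 5 chromatin remodelers. They were picked by name and not by their values, and all 41 were found among the 47729 gene identifiers of the files. All 41 passed a filter on low values (1 TPM or more in 2 or more of 18 libraries), as did 20463 genes in all. TPM (a transcript count scaled to one fixed total for each library) is a share of a library's transcripts after division by gene length, so levels of different genes can be set side by side. Dnmt3b reached 1 TPM in 9 libraries, 7 of them from sorted D0, D0, D2 and D4 cultures, and each of the others did so in 16 to 18.

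The study, on how cochlear supporting cells become hair cells, measured RNA in 18 mouse libraries in 9 groups of 2. A set of 3 groups came from cochlear sensory epithelium sorted at postnatal day 2 and titled Atoh1, Lgr5 and Sox2, after a hair cell transcription factor, a progenitor receptor and a supporting cell transcription factor. The other 6 groups were primary cochlear organoids titled LCP: unsorted at labelled differentiation times of day 0 (D0), D2, D4 and D10, and sorted at D0 and D10. The labels do not spell out LCP or the sort applied to it, and they name no strain, genotype, reporter allele or culture agent for these samples. Per the labels each sample came from both ears of a single pup, and nothing states how cultures were split, so p-values measure the spread between these libraries, which may in part be technical. In this bulk RNA, fewer cells of a type and less RNA per cell cannot be told apart.

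Polycomb repressive complex 2 places methyl groups on lysine 27 of histone H3 and complex 1 compacts chromatin and ubiquitinates histone H2A, whereas Trithorax-type enzymes methylate lysine 4 of histone H3. Dnmt1 copies methylation onto newly made DNA with the help of Uhrf1, which recognises the half-methylated sites behind the replication fork, and of the remodeler Hells. That copying happens during DNA replication. Dnmt1, Uhrf1, Hells and the Polycomb methyltransferase Ezh2 are known as genes switched on by E2F factors as cells enter S phase. In the cochlea, hair cells and supporting cells leave the cell cycle before birth, and neonatal supporting cells placed in organoid culture divide again.

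The 4 S phase members are shown with the stretch of their promoter that holds an E2F-like match, because Uhrf1 and Hells gave the largest differences in RNA and Dnmt1 and Ezh2 share their known S phase control. Sequences are RefSeq promoter windows on GRCm38.p6, from 250 bases before to 50 bases after each start, printed on the gene's strand with the match in capitals. The Uhrf1 stretch, chr17:56304082-56304181, lies in the first intron of longer Uhrf1 transcripts, before a start at 56304313. The Hells stretch, chr19:38930836-38930935, lies before the gene apart from its last 21 bases, which are annotated as 5′ UTR. The 30 bases of Dnmt1, chr9:20952824-20952853, and of Ezh2, chr6:47595020-47595049, lie in annotated UTR of these minus strand genes. The Dnmt1 stretch lies before its window's start at 20952623, inside a gene that extends to 20959888. That window holds a second match, 33 bases after the start, which is not shown. The Dnmt1 match shown reads GCGCGAAA because its motif is on the opposite strand.
Uhrf1: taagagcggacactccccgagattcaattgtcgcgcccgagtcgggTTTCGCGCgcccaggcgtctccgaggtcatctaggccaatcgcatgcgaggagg
Hells: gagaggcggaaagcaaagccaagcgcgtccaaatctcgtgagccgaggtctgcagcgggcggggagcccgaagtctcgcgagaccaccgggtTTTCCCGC
Dnmt1: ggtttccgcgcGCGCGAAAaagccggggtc
Ezh2: cgatggcgattgggttgctgcgTTTGGCGC

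The motif search covered TTTGGCGC, TTTCCCGC, TTTCGCGC and TTTGGCGG on both strands, letters that resemble an E2F site. Of the 41 members, 34 had a promoter window, and 6 of these (17.6%) held a match: Uhrf1, Hells, Dnmt1, Ezh2, Suz12 and Arid1a. Among all 27025 genes with a window, 730 (2.70%) held one, and among 28 cell cycle genes with a window 7 did. A second pair of letters, TTTGAA and TTCGAA, resembles the element of mitotic promoters. It was found in 6 of the 34 members (17.6%), in 21.7% of all genes and in 14 of the 28 cell cycle genes (50.0%). Suz12 and Dnmt1 held both kinds. In Suz12 the matches began apart in the same window, at -219 and -203 from the start, and in Dnmt1 they lay in different windows. A match describes the letters and says nothing of binding.

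Libraries had 14381 to 16713 genes at 1 TPM or more, the 41 members summed to between 869 and 1586 TPM, and replicates correlated at r from 0.903 to 0.945 across genes. Hair cell markers summed to 1415 to 1895 TPM in the Atoh1 sort, to 593 to 961 in the Lgr5 sort and to 885 to 923 for Sox2. All 9 were at 1 TPM or more in each library of the 3 native sorts, so the Lgr5 and Sox2 sorts were not free of them. In culture the same list summed to 5.64 to 18.97 TPM in sorted D0, 32.6 to 35.8 in D0, 633 to 2500 in D10 and 4196 to 5444 in sorted D10. Cabp2 alone made up 64.4% of the list's level in D10 and 79.0% in sorted D10. In the Atoh1 sort the top hair cell marker, Lhfpl5, made up 33.0%. Supporting cell markers were at 1 TPM or more in 6 of 8 cases in D0 and 4 of 8 in sorted D10, where S100a1 made up 98.8% of their sum. Glial markers summed to 428 to 941 TPM in the Sox2 sort against 11.2 to 189 in the other groups. In the culture groups Sox10 made up 72.0% to 87.9% of the glial level, while Mbp led in the Sox2 sort at 43.3%. Sox10 is also on the supporting cell list, so it can count in both. Erythroid markers summed to 193 to 281 TPM in the Atoh1 sort, 1.37 to 105 in the Lgr5 sort and 1.72 to 103 for Sox2. In the cultures they summed to 0.115 to 5.26 TPM. Of their 5 genes, 2 or 3 were at 0 in D0, D2, D4 and sorted D10. Mesenchyme markers summed to 102 to 141 TPM in the Atoh1 sort, 46.5 to 59.4 in the Lgr5 sort and 131 to 146 for Sox2. Their sums in the cultures were 0.514 to 12.5 TPM. Replicate 1 of D0, D2 and D4 was sequenced in a run of its own, apart from replicate 1 of the other groups and from all replicates 2, going by the labelled sequencing dates. In replicate 1 of every group but the sorted cultures the labelled extraction date is later than the sequencing date, so at least one of the labelled dates is in doubt.

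Over 11 comparisons the members gave 35 calls, meaning a limma adjusted p under 0.05 across all genes. The Atoh1 sort against the Lgr5 and Sox2 sorts gave 0 calls, with 2 members at an unadjusted p under 0.05, where 0.821% of all genes were called (0.318% higher, 0.503% lower). In that comparison 0 of 9 hair cell and 0 of 8 supporting cell markers were called, and 1 of 6 glial markers was lower. The 0 calls there thus do not show that the members were alike in these sorts. The Lgr5 against the Sox2 sort also gave 0, with 1 member unadjusted (0.557% of genes, 0.0538% higher and 0.503% lower). D2 against D0 gave 0, with 1 member unadjusted (0.0489%, 0.0147% higher and 0.0342% lower). At D4 against D0, 3 members were lower and 0 higher, where 3.39% of all genes were called (1.09% higher, 2.29% lower). At D10 against D0, 8 were lower and 0 higher, where 7.39% were called (3.05% higher, 4.34% lower). In sorted D10 against sorted D0, 9 were lower and 3 higher, where 24.0% were called (13.3% higher, 10.7% lower). Against native cells, sorted D0 had 5 members higher and 1 lower than the Lgr5 sort, where 11.0% of genes were called (3.85% higher, 7.11% lower). Sorted D10 had 1 member higher and 5 lower than the Atoh1 sort, where 11.8% were called (4.51% higher, 7.34% lower). Sorted against unsorted D0 gave 0 calls, with 7 members unadjusted (0.0782% of genes, 0.0293% higher and 0.0489% lower). Sorted against unsorted D10 gave 0, with 10 members unadjusted (6.22%, 4.29% higher and 1.94% lower). The change over culture in sorted cells minus that in unsorted cells gave 0 calls too, with 5 members unadjusted (0.205%, 0.166% higher and 0.0391% lower). These 0 counts at D0, D2, between native sorts and for the difference of changes stayed 0 under every setting run. D2, D4 and D10 share their D0 libraries, so their calls are not independent of each other. All percentages of genes given here are at the adjusted threshold. The share of all genes at an unadjusted p under 0.05 is not given, so the unadjusted member counts cannot be set against these percentages.

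**Figure D1:**
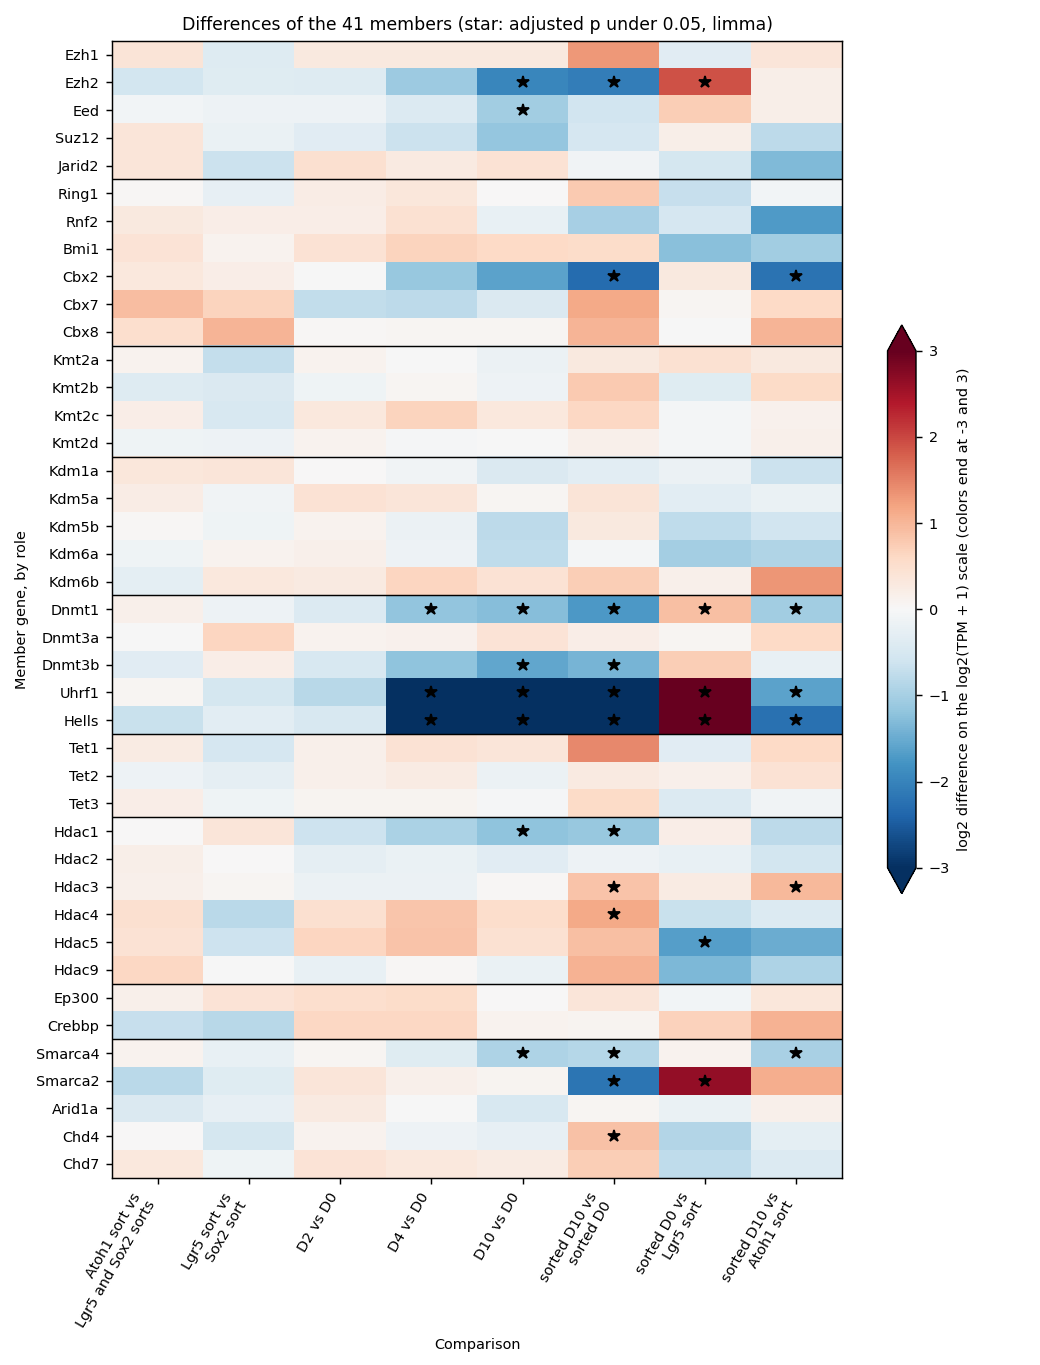
Colors give the log2 difference of each of the 41 members (rows, grouped by role) in 8 comparisons (columns) on the log2(TPM + 1) scale, with colors ending at -3 and 3 and a star where the limma adjusted p was under 0.05. The dark blue cells with stars are Uhrf1 and Hells at D4, D10 and sorted D10, and no star appears in the 2 comparisons of native sorts or at D2.

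The median member moved little in the same comparisons. Its log2 difference was 0.03 at D4, -0.17 at D10 and 0.27 in sorted D10 against sorted D0, beside -0.06, -0.08 and 0.02 for all genes. The 4 members with textbook S phase roles were called lower in 4 of 4 cases in sorted D10 and at D10, and in 3 of 4 at D4. Genes of DNA methylation and its maintenance gave the most calls, and Trithorax methyltransferases, demethylases, TET oxidases and acetyltransferases gave none in any of the 11 comparisons.

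To sort members by the cell cycle, each was set beside the mean of 36 genes of replication and mitosis that hold no member. That mean stood at 1.63 to 2.51 on the log2(TPM + 1) scale in the native sorts, 4.82 and 5.16 in sorted D0 and 4.86 and 5.04 in D0. It was 4.13 and 4.70 at D2, 2.40 and 1.90 at D4, 1.59 and 1.42 at D10, and 1.37 and 1.27 in sorted D10. Mki67, a marker of dividing cells, was at 5.15 and 4.75 TPM in D0 and at 0.0586 and 0.0318 in D10. Of the 36 genes, 34 were called lower at D10 and 35 in sorted D10.

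Across the 9 group means, Uhrf1 had Pearson's r 0.99 with that mean, Hells 0.97, Dnmt3b 0.95, Ezh2 0.94, Dnmt1 0.92, Hdac1 0.82, Eed 0.81 and Cbx2 0.75. These 8 members reached r of 0.7 or more in each replicate alone and are said to follow the cell cycle genes. Suz12 and Smarca4 reached it in replicate 1 only, at 0.70 and 0.75 against 0.36 and 0.50 in replicate 2, and the other 31 members in neither. Over the 6 culture groups alone, Smarca4 had r 0.91 and also met the rule. Cbx2, at 0.73 and 0.70 in the replicates, was the member just inside the threshold, and Smarca2, at 0.57 and 0.69, was just outside in both. The lowest values belonged to Hdac4 and Tet1, both at -0.68, and Ring1 at -0.67. At a threshold of 0.8 the followers were 5: Ezh2, Dnmt1, Dnmt3b, Uhrf1 and Hells. The points share libraries and a culture course, so r is a description over 9 groups with no test, and since the split was made on the same libraries as the calls, its overlap with them supports nothing further. With that limit, 7 of the 8 followers were called lower in sorted D10, and of the 31 others 1 was lower and 3 were higher.

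**Figure D2:**
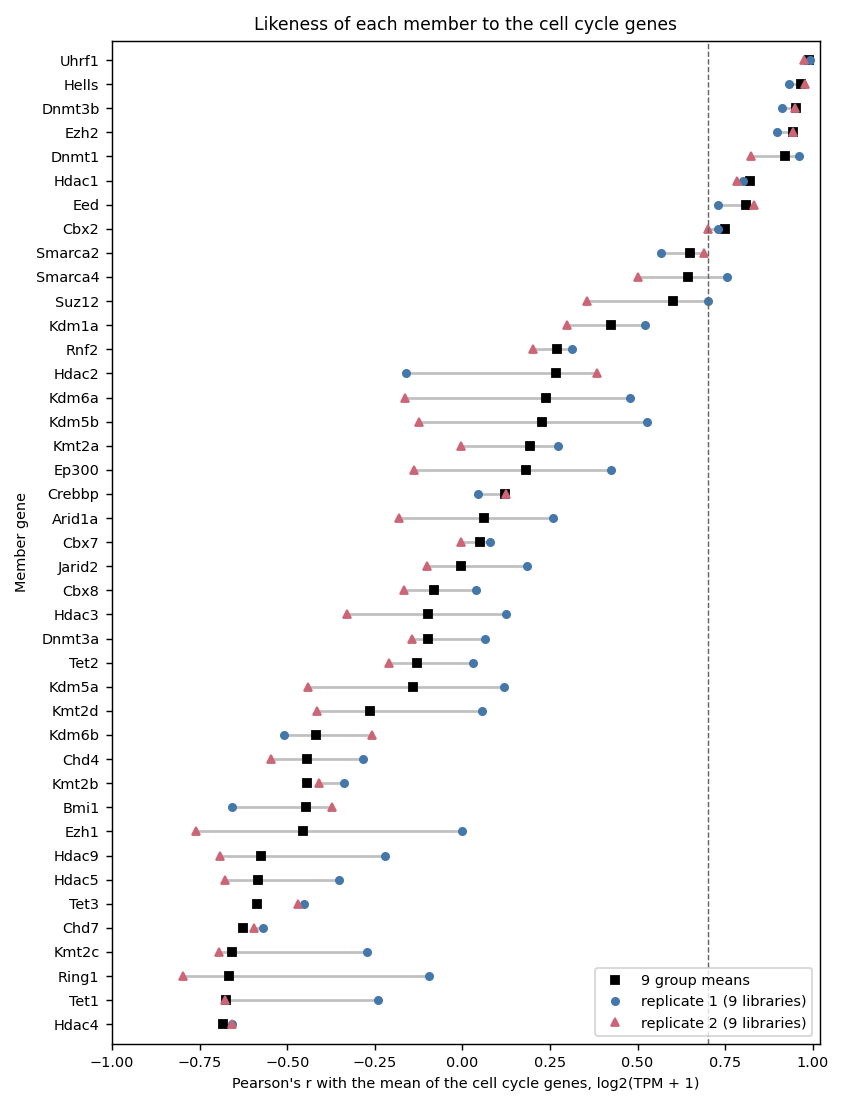
Each row is a member and the horizontal axis is Pearson's r with the mean of the 36 cell cycle genes on the log2(TPM + 1) scale, over 9 group means (square) or the 9 libraries of replicate 1 (circle) or 2 (triangle), with the dashed line at 0.7. All 3 symbols of Uhrf1, Hells, Dnmt3b, Ezh2 and Dnmt1 lie above 0.8, while those of Ezh1 and Ring1 differ widely between the replicates.

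Uhrf1 (ENSMUSG00000001228, chr17:56303321-56323486), the reader of half-methylated DNA, was highest in the early cultures, where the cell cycle genes were also high. It read 4.26 and 3.34 TPM in the Atoh1 sort, 2.83 and 2.81 in the Lgr5 sort and 4.64 and 4.41 in the Sox2 sort. In culture it read 44.8 and 33.3 TPM in sorted D0, 48.7 and 56.6 in D0, 25.4 and 33.2 in D2, 7.03 and 2.80 in D4, 2.07 and 1.17 in D10, and 1.07 and 0.191 in sorted D10. The D0 and D2 libraries lay above all others, and sorted D10 lay below every native library. The log2 difference was -3.27 (SE 0.39, adjusted p = 0.00103) at D4 against D0 and -4.37 (SE 0.39, adjusted p = 0.000155) at D10. Sorted D10 was lower than sorted D0 by -4.66 (SE 0.39, adjusted p = 4.56e-05). Sorted D0 exceeded the Lgr5 sort by 3.38 (SE 0.39, adjusted p = 0.000253). These 4 calls held in every fit that left out 1 library, but the D4 call was lost in a fit of only the groups compared, which has few degrees of freedom (adjusted p = 0.132). Sorted D10 was also lower than the Atoh1 sort, at -1.61 (SE 0.39, adjusted p = 0.0212). That call was lost without Atoh1 replicate 1 (adjusted p = 0.124), Atoh1 replicate 2 (0.0751) or sorted D10 replicate 2 (0.186), with a pseudocount of 5 TPM (0.108) and with only the groups compared (0.0519).

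Hells (ENSMUSG00000025001, chr19:38930915-38971051), a remodeler that opens packed chromatin to DNA methylation, had the widest range of the members relative to its lowest level. Native libraries read 6.63 and 4.42 TPM (Atoh1 sort), 11.98 and 5.41 (Lgr5 sort) and 19.1 and 5.34 (Sox2 sort). Cultures read 133 and 259.8 TPM in sorted D0, 130.4 and 108 in D0, 71.2 and 99.9 in D2, 22.6 and 5.95 in D4, 5.53 and 2.48 in D10, and 0.484 and 0.256 in sorted D10. Every D0 and D2 library was above every native library, and both sorted D10 libraries were under 1 TPM. The difference from D0 was -3.22 (SE 0.655, adjusted p = 0.0195) at D4 and -4.65 (SE 0.655, adjusted p = 0.00165) at D10. In sorted cells it was -7.10 (SE 0.655, adjusted p = 6.6e-05), and sorted D0 stood 4.36 (SE 0.655, adjusted p = 0.00128) above the Lgr5 sort. The D4 call was lost without D0 replicate 1 (adjusted p = 0.13), D0 replicate 2 (0.102) or D4 replicate 2 (0.177), and with only the groups compared (0.159), and the other 3 held in each of these fits. Sorted D10 lay -2.24 (SE 0.655, adjusted p = 0.0462) from the Atoh1 sort, a call lost without any 1 of the 4 libraries compared (adjusted p from 0.119 to 0.209), under TMM scaling (0.0643), with no filter (0.0692) and with a pseudocount of 5 TPM (0.248).

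Dnmt1 (ENSMUSG00000004099, chr9:20907209-20959888), the maintenance methyltransferase, had its culture group means in the same order as Uhrf1, over a narrower range. Its means of 9.41 TPM in D4 and 8.70 in D10 lay below its native means of 10.6 to 12.9. It read 9.88 and 16.0 TPM in the Atoh1 sort, 10.7 and 10.6 in the Lgr5 sort and 11.4 and 12.6 in the Sox2 sort. Cultures gave 21.3 and 20.2 TPM in sorted D0, 21.0 and 24.2 in D0, 16.6 and 17.1 in D2, 8.56 and 10.3 in D4, 7.999 and 9.40 in D10, and 6.12 and 5.04 in sorted D10. Sorted D10 was the lowest group and D0 the highest, without overlap between them. The difference from D0 was -1.18 (SE 0.26, adjusted p = 0.0279) at D4 and -1.29 (SE 0.26, adjusted p = 0.0112) at D10, and in sorted cells -1.73 (SE 0.26, adjusted p = 0.000737), which held without any 1 library. Sorted D0 was 0.90 above the Lgr5 sort (SE 0.26, adjusted p = 0.0437), and sorted D10 was -1.05 from the Atoh1 sort (SE 0.26, adjusted p = 0.0214). Leaving out any 1 of the 4 libraries compared ended the D4 call (adjusted p from 0.106 to 0.194) and the call against the Lgr5 sort (0.115 to 0.174). The D10 call was lost without D0 replicate 1 (0.0591), D0 replicate 2 (0.0891) or D10 replicate 1 (0.0512). The call against the Atoh1 sort was lost without Atoh1 replicate 2 (0.187), sorted D10 replicate 1 (0.0682) or sorted D10 replicate 2 (0.154), and under TMM scaling (0.0527), and the call against the Lgr5 sort was lost with array weights (0.0958). With only the groups compared, all but the sorted call were lost (0.212 at D4, 0.154 at D10, 0.247 against the Lgr5 sort and 0.11 against the Atoh1 sort).

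The proportion of the reader to the enzyme it recruits was not constant. Uhrf1 was 0.209 to 0.431 of the Dnmt1 level per length in the 6 native libraries. It was 1.54 to 2.33 times the Dnmt1 level in the 6 libraries of sorted D0, D0 and D2, and 0.038 and 0.174 of it in sorted D10. The culture extremes lay on both sides of the native range.

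Both de novo methyltransferases were detected, and they did not share a course. Dnmt3b, at 2.34 and 2.62 TPM in sorted D0 and 3.65 and 3.00 in D0, was at 0.507 and 0.424 in D10 and 0.196 and 0.450 in sorted D10. Its native libraries spanned 0.326 to 1.41 TPM, and D2 and D4 read 1.90 and 2.27 and 1.00 and 0.722. It fell by 1.56 on the log2 scale at D10 (SE 0.30, adjusted p = 0.00962) and by 1.40 in sorted D10 (SE 0.30, adjusted p = 0.00594). At D4 the difference was -1.22 (SE 0.30) with an adjusted p of 0.051, and 0.0373 with the replicate block. The D10 call was lost without D0 replicate 1 (0.0816) or D10 replicate 2 (0.054) and with only the groups compared (0.112), and the sorted call without sorted D10 replicate 1 (0.0624). Dnmt3a, the most abundant gene of this class that gave no call, read 68.3 and 56.0 TPM in D0, 62.8 and 107 in D10, 93.2 and 50.6 in sorted D0 and 102 and 62.1 in sorted D10. Its other groups ran from 19.6 TPM, in the Sox2 sort, to 90.1 in the same sort. Dnmt3a has a named pseudogene, Dnmt3a-ps1, so its reads may be shared.

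**Figure D3:**
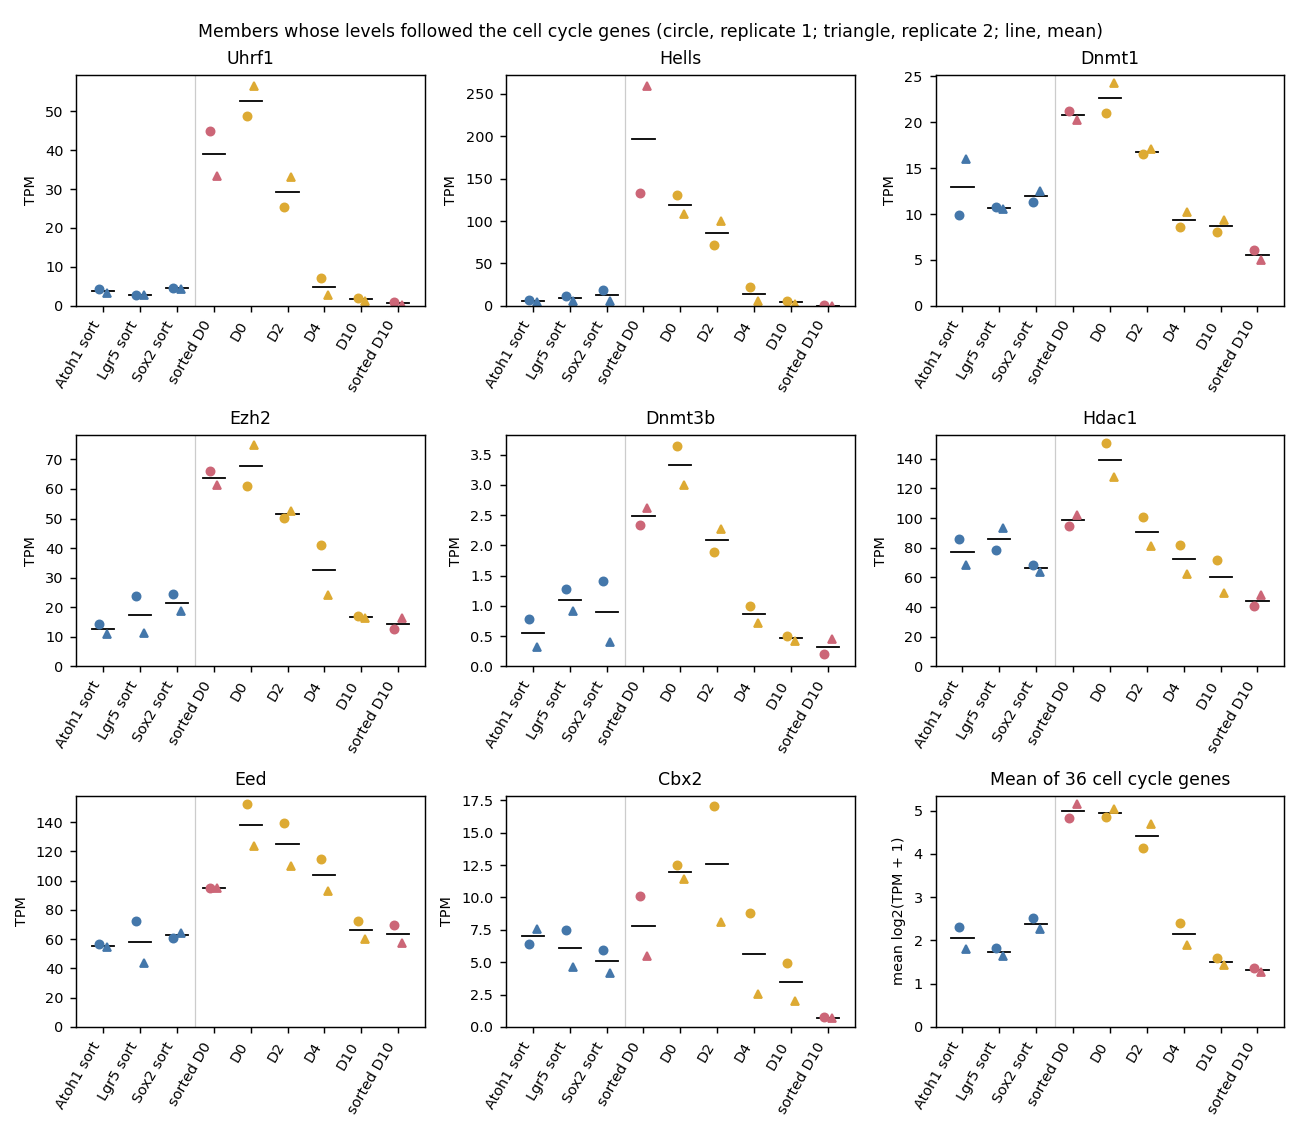
The vertical axes give TPM from 0 in each library of the 9 groups (circle, replicate 1; triangle, replicate 2; line, group mean; gray line between native sorts and cultures) for the 8 members that followed the cell cycle genes, and the last panel gives the mean log2(TPM + 1) of the 36 cell cycle genes. Uhrf1 and Hells drop from D2 to D4 with the last panel, while Eed and Hdac1 decline over a smaller range.

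The 3 TET oxidases, which start the removal of DNA methylation, gave no call. Tet3, the most abundant, read 22.4 and 10.0 TPM in the Atoh1 sort, 14.9 and 10.4 in the Lgr5 sort, 19.9 and 9.32 for Sox2, and between 8.52 and 17.8 in the 12 culture libraries. Tet1 read 4.92 and 1.68 TPM in sorted D0 and 12.9 and 7.39 in sorted D10, groups that did not overlap, with a difference of 1.44 (SE 0.53) and an adjusted p of 0.0691. Its adjusted p was 0.0383 in 1 of the 4 fits that left out 1 of these libraries. Tet2 lay between 5.15 and 14.6 TPM in all libraries.

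Within Polycomb repressive complex 2 the 2 alternative methyltransferases differed. Ezh2 (ENSMUSG00000029687, chr6:47530139-47595341) read 14.2 and 10.99 TPM in the Atoh1 sort, 23.7 and 11.1 in the Lgr5 sort and 24.4 and 18.8 in the Sox2 sort. It read 66.0 and 61.2 TPM in sorted D0, 60.8 and 75.0 in D0, 50.3 and 52.6 in D2, 40.9 and 24.0 in D4, 17.1 and 16.3 in D10, and 12.5 and 16.5 in sorted D10. The 6 early culture libraries lay above all others, and D10 lay within the native range. Ezh2 was -1.95 (SE 0.345, adjusted p = 0.0058) at D10 against D0, -2.07 (SE 0.345, adjusted p = 0.00142) in sorted D10 against sorted D0, and 1.90 (SE 0.345, adjusted p = 0.00389) in sorted D0 against the Lgr5 sort. Leaving out D0 replicate 2 ended the D10 call (adjusted p = 0.0557), and the other 2 calls held without any 1 library. With only the groups compared, the D10 call (0.0638) and the call against the Lgr5 sort (0.0713) were lost. Its difference at D4 was -1.08 (SE 0.345, adjusted p = 0.129).

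Ezh1, the methyltransferase better known from cells that do not divide, read 6.55 and 4.23 TPM in sorted D0 and 15.0 and 13.9 in sorted D10. That difference was 1.30 (SE 0.46), with an adjusted p of 0.0578, of 0.0335 with the replicate block and of 0.0424 under TMM scaling. In D0, D2 and D4 its replicates disagreed, at 14.1 and 6.58, 18.6 and 7.86, and 17.9 and 8.02 TPM. Ezh2 was 10.1 and 14.5 times the Ezh1 level per length in sorted D0, 1.48 and 1.30 times in D10, and 0.831 and 1.18 times in sorted D10. In the Atoh1 sort the ratio was 1.38 and 0.944, and in the Lgr5 and Sox2 sorts 1.60 to 3.34.

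Eed, the subunit that binds methylated lysine 27, was on average the most abundant of the members from this complex. Rbbp7, counted here among the other chromatin genes of the complex, had a higher mean at D10 (135 TPM against 66.3 for Eed). It read 56.9 and 54.4 TPM in the Atoh1 sort, 72.2 and 43.7 in the Lgr5 sort, 60.8 and 64.4 for Sox2, 95.3 and 94.8 in sorted D0 and 153 and 124 in D0. The later cultures gave 139.5 and 110.1 TPM in D2, 115 and 92.8 in D4, 72.2 and 60.4 in D10, and 69.6 and 57.2 in sorted D10. D10 returned to levels seen in the native sorts. Eed fell by 1.05 at D10 (SE 0.25, adjusted p = 0.0266), a call lost without D0 replicate 1 (0.181), D0 replicate 2 (0.0723) or D10 replicate 2 (0.14), and with only the groups compared (0.16). In sorted D10 the difference was -0.58 (SE 0.25, adjusted p = 0.115) and 0.0457 with the replicate block. Sorted D0 against the Lgr5 sort gave 0.75 (SE 0.25, adjusted p = 0.0834), with 0.0287 under the block and 0.0208 under TMM scaling.

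Suz12, the scaffold subunit, and Jarid2, an accessory factor, gave no call. Suz12 read 49.1 and 34.0 TPM in D0, 38.3 and 26.5 in D2, 28.9 and 23.4 in D4 and 14.7 and 21.1 in D10, against 16.1 and 12.9 in sorted D0 and 8.38 and 11.7 in sorted D10. Its native libraries ran from 11.9 to 24.1 TPM. The difference at D10 was -1.17 (SE 0.35, adjusted p = 0.0701), and sorted D0 was -1.45 from unsorted D0 (SE 0.35, adjusted p = 0.317). Jarid2 ran from 3.24 to 26.1 TPM, and sorted D10 was -1.64 from unsorted D10 (SE 0.50, adjusted p = 0.0752), or 0.046 under TMM scaling.

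In Polycomb repressive complex 1, 1 of 6 members gave calls. Cbx2, a subunit that reads methylated lysine 27, read 6.44 and 7.59 TPM in the Atoh1 sort, 7.50 and 4.64 in the Lgr5 sort and 5.97 and 4.16 in the Sox2 sort. Cultures read 10.1 and 5.49 TPM in sorted D0, 12.5 and 11.4 in D0, 17.1 and 8.09 in D2, 8.77 and 2.52 in D4, 4.95 and 2.03 in D10, and 0.756 and 0.691 in sorted D10. Sorted D10 lay below all 16 other libraries. Cbx2 was -2.30 (SE 0.53, adjusted p = 0.00828) in sorted D10 against sorted D0 and -2.21 (SE 0.53, adjusted p = 0.0186) against the Atoh1 sort. The first call was lost without sorted D0 replicate 1 (0.0572) or sorted D10 replicate 1 (0.0501). The second was lost without any 1 of the 4 libraries (0.0756 to 0.107) and with a pseudocount of 5 TPM (0.0575). At D10 against D0 the difference was -1.61 (SE 0.53, adjusted p = 0.0953), and 0.026 with the replicate block.

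The ubiquitin ligase Rnf2 was the most abundant member of the class without a call, and its replicates stood apart. It read 44.3 and 35.5 TPM in the Atoh1 sort, 48.7 and 24.2 in the Lgr5 sort, 44.1 and 19.8 for Sox2 and 36.6 and 15.4 in sorted D0. It read 80.0 and 43.9 TPM in D0, 115 and 40.7 in D2, 128 and 51.1 in D4, 77.6 and 32.7 in D10, and 16.1 and 8.08 in sorted D10. Replicate 1 was the higher one in all 9 groups. Sorted D10 was -2.04 from unsorted D10 (SE 0.69, adjusted p = 0.0997, and 0.00265 with the replicate block), -1.70 from the Atoh1 sort (SE 0.69, adjusted p = 0.138, and 0.00172) and -0.99 from sorted D0 (SE 0.69, adjusted p = 0.328, and 0.0137). The alternative ligase Ring1 stayed between 11.1 and 32.5 TPM. Bmi1, which stimulates the ligase, ran from 6.78 to 50.5 TPM and Cbx8 from 1.40 to 15.0, with no call.

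Cbx7, an alternative to Cbx2 in the same complex, was at 1.61 and 1.14 TPM in sorted D0 and 6.08 and 2.83 in sorted D10, the opposite order to Cbx2. Its difference was 1.14 (SE 0.39) with an adjusted p of 0.051, which was 0.0243 with the replicate block, 0.0327 under TMM scaling and 0.0481 with a pseudocount of 5 TPM. In unsorted cultures it read 5.67 and 4.10 TPM in D0 and 3.11 and 3.62 in D10. The difference between the sorted and unsorted changes, 1.56 (SE 0.55), had an adjusted p of 0.333.

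None of the 4 Trithorax-type methyltransferases was called. Kmt2c, which primes enhancers, was the most abundant: 8.25 and 12.3 TPM in the Atoh1 sort, 6.99 and 7.41 in the Lgr5 sort, 6.94 and 15.6 for Sox2, 6.78 and 6.88 in sorted D0 and 13.0 and 9.40 in sorted D10. In unsorted cultures it read 6.03 and 4.46 TPM in D0, 7.56 and 5.90 in D2, 9.32 and 8.497 in D4 and 4.44 and 9.87 in D10. Kmt2a, Kmt2b and Kmt2d lay between 0.964 and 10.6 TPM. Kmt2b was 1.27 above unsorted D10 in sorted D10 (SE 0.44, adjusted p = 0.109).

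The 5 histone demethylases gave no call either. Kdm1a, which removes methyl groups from lysine 4, was the most abundant, at 65.2 and 63.6 TPM in the Atoh1 sort, 59.7 and 55.5 in the Lgr5 sort, 54.1 and 36.3 for Sox2 and 67.0 and 38.7 in sorted D0. It read 89.5 and 84.5 TPM in D0, 103 and 73.3 in D2, 94.0 and 69.5 in D4, 77.7 and 52.6 in D10, and 47.1 and 35.7 in sorted D10, the lowest group mean. Kdm5a and Kdm5b, which act on the same residue, ran from 19.8 to 66.1 and from 11.02 to 74.3 TPM.

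The enzymes that remove methyl groups from lysine 27, Kdm6a and Kdm6b, differed in balance. Kdm6a was 1.38 to 2.31 times the Kdm6b level in the 6 native libraries, 5.58 and 6.81 times in D0, 1.31 and 0.305 times in sorted D0, 1.80 and 2.39 times in D10, and 0.532 and 0.209 of it in sorted D10, so the sorted D0 and sorted D10 ratios overlapped. Kdm6b read 4.21 and 7.51 TPM in sorted D0 and 9.50 and 10.7 in sorted D10, where it was above all other libraries. Its difference was 1.32 from the Atoh1 sort (SE 0.54, adjusted p = 0.141) and 1.47 from unsorted D10 (SE 0.54, adjusted p = 0.125). Kdm6a lies on chromosome X and read 20.7 and 5.84 TPM in D0, 21.99 and 6.87 in D2 and 13.4 and 7.30 in D4. The X-linked Xist and the Y-linked Ddx3y were both at 1 TPM or more in 14 of the 18 libraries, although the labels give a single pup per sample, and their part in the Kdm6a values was not tested.

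Among the deacetylases, 4 of 6 gave calls, in different comparisons. Hdac1, a class I enzyme of the nuclear repressor complexes, followed the cell cycle genes. It read 85.6 and 68.2 TPM in the Atoh1 sort, 78.3 and 93.3 in the Lgr5 sort, 68.7 and 63.8 for Sox2, 94.8 and 102 in sorted D0 and 150.5 and 128 in D0. It then read 100.8 and 80.9 TPM in D2, 82.1 and 62.2 in D4, 71.4 and 49.2 in D10, and 40.5 and 48.0 in sorted D10. Both D0 libraries lay above all others and sorted D10 below all others. Hdac1 was -1.21 (SE 0.24, adjusted p = 0.0109) at D10 and -1.14 (SE 0.24, adjusted p = 0.00532) in sorted D10. The D10 call was lost without D0 replicate 1 (0.0955) or D10 replicate 2 (0.0824) and with only the groups compared (0.148), and the sorted call without sorted D10 replicate 1 (0.0545). At D4 the difference was -0.95 (SE 0.24, adjusted p = 0.0565, and 0.0349 with the replicate block), and against the Atoh1 sort sorted D10 was at -0.78 (SE 0.24, adjusted p = 0.0568, and 0.0357).

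Hdac2, its close relative, gave no call. It read 122 and 120.0 TPM in the Atoh1 sort, 115 and 99.9 in the Lgr5 sort, 115 and 97.2 for Sox2, 103 and 82.2 in sorted D0 and 110.4 and 156 in D0. It read 96.3 and 124 TPM in D2, 110.1 and 117 in D4, 112 and 97.0 in D10, and 92.03 and 73.9 in sorted D10. Hdac1 was 1.36 and 0.817 times the Hdac2 level in D0 and 0.440 and 0.649 of it in sorted D10.

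Hdac5, a class IIa enzyme that moves between nucleus and cytoplasm, was highest in native tissue. The 6 native libraries read 92.7 and 104 TPM (Atoh1 sort), 55.6 and 60.1 (Lgr5 sort) and 76.8 and 104 (Sox2 sort). The cultures read 18.9 and 16.9 TPM in sorted D0, 31.5 and 11.5 in D0, 48.4 and 18.9 in D2, 48.2 and 26.0 in D4, 26.9 and 26.4 in D10, and 31.9 and 37.3 in sorted D10. All native libraries lay above all culture libraries. Sorted D0 was lower than the Lgr5 sort by -1.64 (SE 0.47, adjusted p = 0.0453). That call was lost without any 1 of the 4 libraries (0.0995 to 0.188), under TMM scaling (0.0575), with array weights (0.0979) and with no filter (0.0815). Sorted D10 was -1.48 from the Atoh1 sort (SE 0.47, adjusted p = 0.0643), and 0.045 with the replicate block. In D0, D2 and D4 its replicate 1, from the separate run, was the higher one. Hdac5 was not called in the culture comparisons, but with the sequencing run as a term it was higher at D4 (0.85, adjusted p = 0.0345), at D10 (1.11, 0.0159) and in sorted D10 against sorted D0 (0.91, 0.00684).

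Hdac4, also of class IIa, was higher in sorted D10 at 24.2 and 17.6 TPM than in sorted D0 at 7.30 and 10.6, by 1.14 (SE 0.33, adjusted p = 0.0252). The call was lost without sorted D0 replicate 1 (0.131) or sorted D10 replicate 1 (0.177), and with only the groups compared (0.102). Unsorted cultures read 9.19 and 6.17 TPM in D0, 13.2 and 9.13 in D2, 13.7 and 14.5 in D4 and 10.1 and 12.5 in D10, and native libraries ran from 14.2 to 34.8. An antisense gene, Gm26720, overlaps 22.4% of the exon bases of Hdac4, and the kits do not mark strand, so the reads of the pair cannot be told apart. Hdac9, the third class IIa member, ran from 0.147 to 7.02 TPM with no call.

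Hdac3, the enzyme of the nuclear receptor co-repressor complex, was the most abundant member on average. It read 201 and 179 TPM in sorted D10 against 123 and 87.8 in sorted D0 and 89.0 and 103 in the Atoh1 sort. Unsorted cultures read 129 and 136 TPM in D0, 119 and 116 in D2, 104 and 135 in D4 and 103 and 177 in D10, and the Lgr5 and Sox2 sorts 77.6 to 94.2. Sorted D10 was 0.86 above sorted D0 (SE 0.265, adjusted p = 0.034) and 0.98 above the Atoh1 sort (SE 0.265, adjusted p = 0.0333). The first call was lost without sorted D0 replicate 2 (0.196), sorted D10 replicate 1 (0.17) or sorted D10 replicate 2 (0.085) and with only the groups compared (0.0766), and the second without any 1 of the 4 libraries (0.0971 to 0.171).

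The acetyltransferases Crebbp and Ep300, which act at enhancers, gave no call. Crebbp read 10.6 and 7.20 TPM in the Atoh1 sort, 14.8 and 7.71 in the Lgr5 sort, 17.3 and 23.1 for Sox2, 10.3 and 30.5 in sorted D0 and 18.1 and 19.9 in sorted D10. In unsorted cultures it read 18.3 and 6.33 TPM in D0, 21.9 and 13.5 in D2, 23.5 and 12.5 in D4 and 11.5 and 11.9 in D10. Ep300 read 20.3 and 4.76 TPM in D0, 24.6 and 8.70 in D2 and 20.8 and 11.0 in D4, with replicate 1 of the separate run the higher in each.

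**Figure D4:**
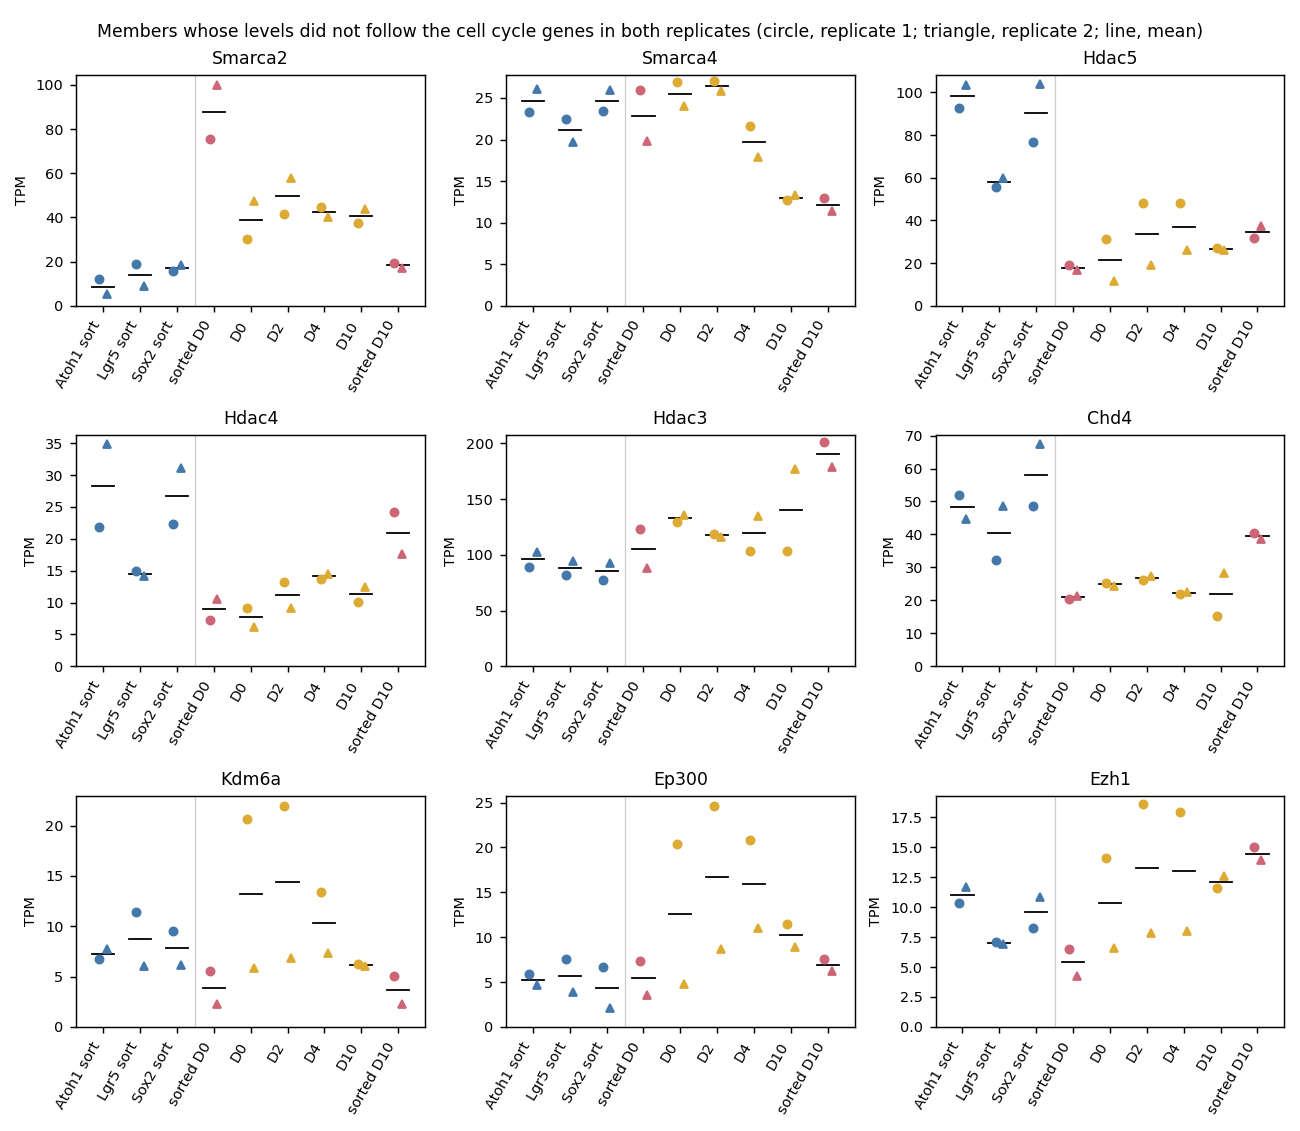
The vertical axes give TPM from 0 in each library (circle, replicate 1; triangle, replicate 2; line, group mean) for 9 members that did not follow the cell cycle genes in both replicates. Smarca2 peaks in sorted D0 at 75.7 and 100.0 TPM, Hdac5 is highest in the native sorts, and Kdm6a, Ep300 and Ezh1 show replicate 1 far above replicate 2 in D0, D2 and D4.

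The remodelers held the largest calls outside the cell cycle followers. Smarca2 (ENSMUSG00000024921, chr19:26605050-26778322), an ATPase of the BAF complex, read 12.1 and 5.35 TPM in the Atoh1 sort, 18.8 and 9.01 in the Lgr5 sort and 15.9 and 18.3 in the Sox2 sort. It read 75.7 and 100.0 TPM in sorted D0, 30.1 and 47.5 in D0, 41.8 and 57.8 in D2, 44.7 and 40.2 in D4, 37.5 and 43.6 in D10, and 19.5 and 17.3 in sorted D10. Sorted D0 lay above all other libraries, and unsorted cultures did not separate by day. Smarca2 was 2.64 (SE 0.39, adjusted p = 0.0012) above the Lgr5 sort in sorted D0 and -2.18 (SE 0.39, adjusted p = 0.00228) in sorted D10 against sorted D0, and both calls held without any 1 library. At D10 against D0 without the sort the groups overlapped. The 2 changes differed by -2.28 (SE 0.56), with an adjusted p of 0.179. Sorted D0 was 1.18 above unsorted D0 (SE 0.39, adjusted p = 0.432).

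Smarca4, the alternative ATPase of the same complex, read 23.3 and 26.1 TPM in the Atoh1 sort, 22.5 and 19.7 in the Lgr5 sort and 23.4 and 25.9 in the Sox2 sort. It read 25.9 and 19.8 TPM in sorted D0, 26.9 and 24.0 in D0, 27.0 and 25.8 in D2, 21.6 and 17.9 in D4, 12.7 and 13.3 in D10, and 12.9 and 11.4 in sorted D10. The 4 late culture libraries lay below all others. Smarca4 was -0.91 (SE 0.22, adjusted p = 0.0254) at D10, -0.85 (SE 0.22, adjusted p = 0.0145) in sorted D10 against sorted D0 and -0.96 (SE 0.22, adjusted p = 0.0146) against the Atoh1 sort. Leaving out any 1 of the 4 libraries ended the first (0.08 to 0.161) and the last call (0.055 to 0.115). The sorted call was lost without sorted D0 replicate 1 (0.083), sorted D10 replicate 1 (0.0554) or sorted D10 replicate 2 (0.0899). With only the groups compared all 3 were lost (0.237, 0.135 and 0.0647). Smarca4 was 1.20 to 4.87 times the Smarca2 level in the native libraries, 0.342 and 0.198 of it in sorted D0, and 0.665 and 0.660 of it in sorted D10.

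Chd4, the ATPase of the NuRD complex, read 52.1 and 44.8 TPM in the Atoh1 sort, 32.2 and 48.5 in the Lgr5 sort and 48.5 and 67.5 in the Sox2 sort. It read 20.3 and 21.5 TPM in sorted D0 and 40.5 and 38.6 in sorted D10, a difference of 0.89 (SE 0.29, adjusted p = 0.0441). The call was lost without any 1 of the 4 libraries (0.107 to 0.172), under TMM scaling (0.0793) and with only the groups compared (0.0742). Sorted D0 against the Lgr5 sort gave -0.89 (SE 0.29, adjusted p = 0.0753), and 0.0485 with the replicate block. Unsorted cultures stayed between 15.4 and 28.3 TPM.

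Chd7, a remodeler whose human gene underlies CHARGE syndrome with inner ear defects, was the most abundant of the class without a call. It read 70.0 and 63.0 TPM in the Atoh1 sort, 61.2 and 41.9 in the Lgr5 sort and 58.8 and 52.6 in the Sox2 sort, 39.3 and 22.2 in sorted D0 and 63.2 and 39.3 in sorted D10. Unsorted cultures read 27.9 and 26.1 TPM in D0, 32.4 and 39.9 in D2, 30.8 and 37.0 in D4 and 33.8 and 31.1 in D10. Arid1a, a BAF subunit, ran from 2.82 to 11.5 TPM. Hair cell markers moved in 4 of the 5 comparisons in which members were called: 8 of the 9 were higher at D4 and at D10, 9 of 9 in sorted D10 against sorted D0, and 8 of 9 were lower in sorted D0 than in the Lgr5 sort. Against the Atoh1 sort, sorted D10 had 1 of 9 higher and 0 lower, while 4 of 5 erythroid, 4 of 8 supporting cell, 3 of 5 tested mesenchyme, 2 of 6 glial and 1 of 6 neuron markers were lower and 1 supporting cell marker was higher. In sorted D0 against the Lgr5 sort, 4 of 6 neuron, 3 of 8 supporting cell, 2 of 5 mesenchyme and 1 of 6 glial markers were lower. In sorted D10 against sorted D0, 3 neuron markers and 1 supporting cell marker were higher, and 2 supporting cell, 2 glial and 1 mesenchyme markers were lower. At D10 against D0, 2 neuron markers and 1 supporting cell marker were higher, and 2 supporting cell markers and 1 mesenchyme marker were lower. At D4 against D0, 1 neuron marker was higher, and 1 supporting cell and 1 mesenchyme marker were lower. Of 2 endothelial markers tested, 1 was lower at D4, at D10 and in sorted D10 against sorted D0, and 1 was higher in sorted D0 than in the Lgr5 sort. On the neuron list Gata3 alone made up 84.9% to 91.1% of the level in the native sorts and 40.9% to 98.9% in the cultures. Calls on that list need not reflect neurons. The part of cell makeup in the members' differences was not tested.

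Of 126 other chromatin genes measured, 4 were called at D4 (1 higher, 3 lower), which is 3.17% against 3.39% of all genes, and 12 at D10 (2 higher, 10 lower), which is 9.52% against 7.39%. The lowest at D10 were Asf1b, a histone chaperone of replication, at -3.36 (SE 0.47, adjusted p = 0.00156), and Rcor2, a partner of Kdm1a, at -3.02 (SE 0.45, adjusted p = 0.00217). Higher at D10 were Actl6b, the BAF subunit of neurons, at 2.67 (SE 0.44, adjusted p = 0.00405), and Gadd45g, a stress and demethylation factor, at 2.25 (SE 0.51, adjusted p = 0.0212). At D4 the lower genes led with Asf1b at -3.71 and the chromatin assembly subunit Chaf1b at -2.92, and Gadd45g was higher by 3.29.

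In sorted D10 against sorted D0, 13 of these 126 genes were higher and 19 lower, a share of 25.4% against 24.0% of all genes. The remodeler Chd5 (4.31, SE 0.81, adjusted p = 0.00292) and Actl6b (4.19, SE 0.44, adjusted p = 0.000127) led the higher genes, and Chaf1b (-4.56, SE 0.60) and Asf1b (-4.00, SE 0.47) the lower. Actl6a, the form of Actl6b found in progenitors, was lower by -1.52 (SE 0.27, adjusted p = 0.00188). Sorted D0 against the Lgr5 sort had 6 higher, led by Chaf1b (4.28) and Asf1b (3.98), and 4 lower, led by the demethylase Kdm4b (-3.09) and Actl6b (-2.42), 7.94% against 11.0% of all genes. Sorted D10 against the Atoh1 sort had 2 higher, Chd5 (3.27) and the deacetylase Sirt2 (2.98), and 9 lower, led by Hdac11 (-3.51) and Kdm1b (-1.63), 8.73% against 11.8%. Sorted against unsorted D10 had 1 higher, Hdac10 (1.45), and 2 lower, Smarca1 (-2.20) and Rbbp7 (-1.31), 2.38% against 6.22%. In the comparisons of native sorts, at D2 and at D0 with and without the sort, 0 of the 126 were called, with 3 to 14 at an unadjusted p under 0.05. For these unadjusted counts too, no matching share of all genes is given.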

How the data were processed

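RNA was measured in 18 mouse libraries in 9 groups of 2, with groups and replicate numbers from the sample titles. Per the labels' protocols, cDNA was made from 2.5 ng of RNA with a kit that does not mark strand and read as single-end 75 bp reads. Each deposited file lists TPM for the 47729 genes of 1 library, scaled by the authors to a fixed total. STAR, Salmon, FastQC, DESeq2 and mm10 are named without roles or versions per the submitters' processing notes, with no annotation named. TPM keeps no depth, so no counting intervals are given, and a rise in abundant genes lowers the rest.

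Values were changed to log2(TPM + 1), which understates changes of low genes, and tested with limma 3.58.1 in R 4.3.3 (trend, 1 mean per group, 9 residual and 2.8 prior degrees of freedom) in 1 fit of all 18 libraries and 20463 genes. Benjamini-Hochberg adjustment ran over all genes in each of 11 comparisons, with a threshold of 0.05. The test was tested on simulated data of 2 sizes of change. It missed most changes of the smaller size and a part of those of the larger size, so a member without a call is not shown to be unchanged. Tables used Python 3.11.15, pandas 2.3.3 and numpy 2.4.6, and gene positions came from GENCODE M21.

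The members, the lists and the tests were chosen with earlier results of these data known. Values in every library are given for Dnmt1, Uhrf1, Hells and Ezh2 and, in each role class, for the 2 members with the largest called differences and the most abundant uncalled member; others were added for their roles after their values were seen. Of other chromatin genes, up to 2 higher and 2 lower are named per comparison, and Actl6a was added after its value was seen. Of 127 listed, 126 matched. The 36 cell cycle genes and the threshold r of 0.7 define the split.

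Replicate numbers mark a shared sequencing run in 8 of the 11 comparisons. Deviations from the group means of same-numbered libraries correlated at -0.02 to 0.48 over 36 pairs of groups (median 0.10, 18 of 36 over 0.1). The fit with the replicate block is given beside a result where it changes the call. In a fit without 1 library, the lone library of that group is taken to vary like the other groups. The tamoxifen protocol in the labels could not be tied to any of these samples. Alternatives covered the pseudocount, the filter, TMM scaling coded directly, blocks, array weights, the groups fitted and single libraries left out.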

Additional observations from a re-analysis of the deposited data

How the results depend on the processing

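Of the 35 calls, 12 held in every fit without 1 library, 35 with the replicate block, which added 13, and 35 with the sequencing run as a term, which added 20. TMM scaling lost 4 and added 4, array weights lost 2 and added 6, a pseudocount of 5 TPM lost 3 and added 3, no filter lost 2, and a fit of only the groups compared, with few degrees of freedom, lost 18, among them Uhrf1 at D4 and Ezh2 against the Lgr5 sort, and added 2. TMM moved the median of all genes by 0.12 in sorted against unsorted D0 and in sorted D10 against the Atoh1 sort, and by -0.15 in the difference of changes. At D4 against D0 the 3 members called became 5 with the replicate block, 6 with the sequencing run, 5 with array weights, 0 with only the groups compared and 1 to 2 without 1 library. At D10 the 8 became 2 with only the groups compared and 3 to 6 without 1 library. In sorted D10 against sorted D0 the 12 ranged from 5, without sorted D10 replicate 1, to 13 when 1 library was left out. Sorted against unsorted D10 went from 0 to 1 with a pseudocount of 0.1 TPM, with TMM scaling and with the replicate block, to 3 with the sequencing run, and to 0 to 1 without 1 library. Sorted D10 against the Atoh1 sort went from 6 to 10 with the sequencing run or array weights, to 9 with the replicate block, and to 0 to 1 without 1 library. Sorted D0 against the Lgr5 sort went from 6 to between 4 and 7 without 1 library. The 8 cell cycle followers became 5 at a threshold of 0.8 and 6 to 9 without 1 library. They became 9 over the 6 culture groups alone, with Smarca4 added. TMM scaling left 7, without Eed, and a pseudocount of 0.1 TPM left 7, without Cbx2. The replicate block changed no other member count by over 1.5 times. Hdac5 at D10 against D0, called only with the sequencing run as a term (1.11), went from 0.45 to -0.23 without D0 replicate 2, and to 1.14 without D0 replicate 1. The cause of these shifts was not tested. TPM gives no depth, so counting error is unknown.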

Other observations

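In several members the first replicate stood above the second in the same groups. At least 2-fold higher in replicate 1 were 7 of 41 members in D0, 8 in D2, 7 in D4, 9 in sorted D0, 6 for Lgr5, 8 for Sox2, 3 for Atoh1, 3 in D10 and 4 in sorted D10. At least 2-fold lower in replicate 1 were 4 members in D10, 3 for Sox2, 1 each in sorted D0, D4 and sorted D10, and 0 in the others. In D0, D2 and D4, whose replicate 1 was sequenced apart, the median ratio of replicate 1 to replicate 2 over the members was 1.35, 1.28 and 1.31, against 1.43 for Lgr5, 1.25 in sorted D0, 1.22 in sorted D10, 1.08 for Sox2, 0.962 in D10 and 0.895 for Atoh1. Ep300 and Kdm6a were at least 2-fold higher in replicate 1 in D0, D2 and sorted D0, Ep300 also in the Sox2 sort and Kdm6a in sorted D10. Rnf2 was so in 6 of the 9 groups, the exceptions being the Atoh1 sort, D0 and sorted D10. The part of the sequencing run in these values was not tested.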
